A study of Mus musculus with 12 samples.

Results

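The Wnt ligands, their receptors and the proteins that carry the Wnt signal into the cell were followed in ageing mouse hippocampus and in the microglia of that region. The members were 20 genes named one by one, from Wnt7a and Wnt7b to the co-receptors, dishevelled proteins, beta-catenin destruction complex and TCF/LEF factors, together with every gene whose symbol is Wnt or Fzd followed by a number. Of the 29957 genes in the microglia table, 46 were members, and of the 14663 genes in the hippocampus table, 37 were. Adgra2 was the 1 named gene not found under its symbol. Both tables list its older symbol, Gpr124, whose values are given beside those of its partner Reck without being counted among the members. The list was drawn up after Wnt7b had been seen to be higher at 18 months in the hippocampus. The hippocampal values of all members are therefore a description. Calls made there, by limma or in the authors' deposited table, rest on the samples that chose the list and support nothing. The tests that bear on members are those in the microglia, although the members were chosen with earlier results of these data known. Wnt7a and Wnt7b had no count in microglia and could not be tested there.

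RNA was sequenced from 12 samples of C57BL/6 mice in 4 groups of 3. Microglia are the macrophages that live in brain tissue, and those of the hippocampus were collected from mice aged 24 months and from mice aged 3 months. Whole hippocampus was taken at 18 months and at 6 months. The labels give no mutation or treatment for any group, and within each tissue the groups differed by age. How the microglia were sorted or enriched is not in the labels, nor whether each of the 3 samples in a group is a different mouse. A p-value here therefore sets a difference against the scatter of the samples at hand, which may be technical.

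The microglia libraries held 8072855 to 14226478 estimated counts, so that a gene with no count in a library may have had up to 0.211 to 0.372 CPM (counts scaled to a common library size) there, an upper limit of 3 counts that covers counting error only. For the hippocampus normalized counts were used, whose sum was 974372 to 1002839 per library, and the read depth is unknown. The labelled cell type was checked against its markers: the 15 microglial genes summed to 72677 to 92259 CPM in the 24 month microglia and 90161 to 96166 CPM in the 3 month microglia, and 12 neuronal genes to 24.2, 61.7 and 25.6 CPM at 24 months and 20.6 to 25.1 CPM at 3 months, with Tubb3 and Slc17a7 at 0 throughout. The summed level of neutrophil and monocyte genes was 2427 CPM in 24 month replicate 1 and at most 49.9 CPM elsewhere. Immediate early genes, which respond within minutes to handling and stimulation, summed to 33389 and 35413 CPM in 24 month replicates 1 and 2, against 1657 CPM in 24 month replicate 3 and 1243 to 2098 CPM in the 3 month libraries. Choroid plexus genes, the markers of the secretory epithelium that lies beside the hippocampus, summed to 3698, 11239 and 347.7 normalized counts in the 18 month hippocampus libraries, against 304.9, 7305 and 2471 in the 6 month libraries.

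Wnt proteins are secreted, lipid-modified signals. They bind frizzled receptors and the co-receptors Lrp5 and Lrp6, which recruit dishevelled and disable a complex of Axin, Apc and Gsk3 that otherwise marks beta-catenin (Ctnnb1) for destruction, so that beta-catenin reaches TCF/LEF factors in the nucleus. Wnt7a and Wnt7b are a closely related pair that signals to brain endothelium through frizzled receptors and a dedicated complex of Reck and Adgra2, and that is needed for vessel growth and the barrier of the developing brain. In hippocampal neurons both are also known for roles in dendrite growth and synapse assembly.

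Wnt7b lies on chromosome 15 (85535437 to 85582473, minus strand, GRCm38, GENCODE M21) and Wnt7a on chromosome 6 (91363981 to 91411363, minus strand). Their coding sequences, of 1068 and 1047 bases, were identical at 76.9% of 1043 aligned bases and shared no stretch of 31 bases. The 90 base windows printed here surround their longest identical run, 23 bases, and are shown because this is where the genes are hardest to separate. They encode the conserved loop whose serine carries the lipid that Porcupine attaches. Capitals mark the 13 bases that differ between the windows, which run 5′ to 3′ from coding position 597 to 686 in Wnt7b and from 576 to 665 in Wnt7a.
Wnt7b: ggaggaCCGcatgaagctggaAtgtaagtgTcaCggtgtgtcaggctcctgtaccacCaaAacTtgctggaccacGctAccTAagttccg
Wnt7a: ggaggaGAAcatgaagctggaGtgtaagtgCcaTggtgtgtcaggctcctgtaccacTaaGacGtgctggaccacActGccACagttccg

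In whole hippocampus, Wnt7b was measured at 24.6, 57.4 and 57.1 normalized counts in the 18 month libraries, against 6.67, 1.89 and 5.48 in the 6 month libraries. Every 18 month library lay above every 6 month library, and 18 month replicate 1 was the lowest of its group. The means were 46.4 ± 18.8 normalized counts at 18 months and 4.68 ± 2.49 at 6 months (SD, n = 3 each). The difference was 3.08 ± 0.69 (SE) on the scale of log2(normalized count + 1), and the authors' deposited table gives a log2 change of 3.16 ± 0.60 (SE) after turning it to 18 minus 6 months. These are the values that put the gene on the list. The authors' deposited table has an adjusted p under 0.05 for 0.118% of 11819 genes higher at 18 months and 0.186% lower. Of the 27 members with an adjusted p there, Wnt7b is the 1 so called, on the same values that chose it, so nothing is read from that call. The exons of Wnt7b overlap those of AU022754 on the opposite strand, with which it shared 4.82% of its 31 base stretches. The labels name no kit that keeps strand, so whether reads of the overlap could be assigned to either gene is unknown.

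In Wnt7a, its closest relative, the ages were not apart. It was measured at 13.9, 17.4 and 12.0 normalized counts in the 18 month libraries, against 17.7, 22.3 and 14.7 in the 6 month libraries. The ranges overlapped, and the difference on the log2(normalized count + 1) scale was -0.31 ± 0.59 (SE), or -0.17 ± 0.70 without 6 month replicate 2 and -0.20 ± 0.64 without 18 month replicate 3. Wnt7a was highest in the replicate 2 library of each age, where choroid plexus genes and thalamus and habenula genes were also highest. The part of those tissues in the Wnt7a values was not tested. Over all 6 libraries, Wnt7a averaged 16.3 and Wnt7b 25.5 normalized counts. Per kilobase these were 14.4 and 8.05, with transcript lengths of 1.13 and 3.17 kb taken from the microglia data. Neither gene had a count in microglia, so these lengths rest on no read and do not rank the genes.

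**Figure D1:**
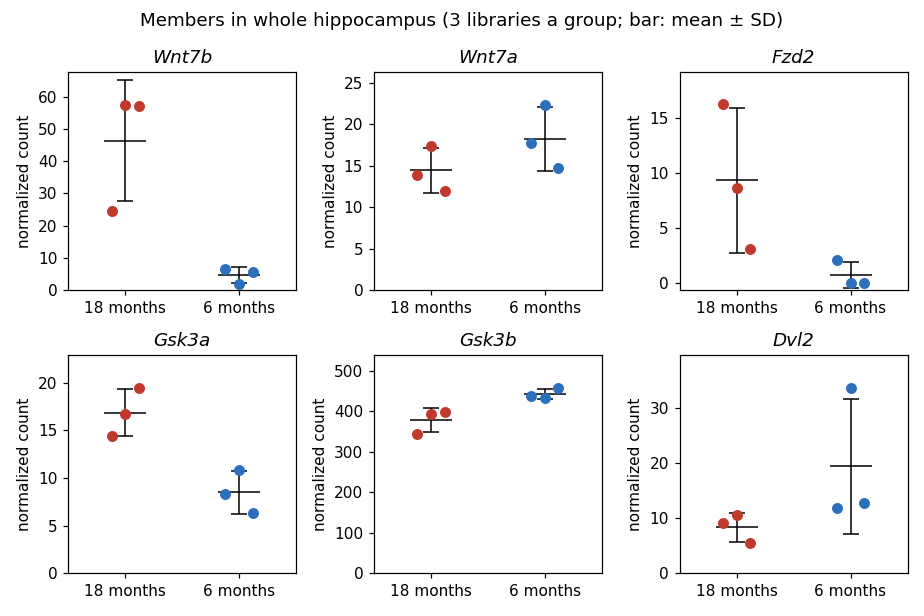
Normalized counts (vertical axis) of 6 members in each of the 3 hippocampus libraries at 18 months (red) and 6 months (blue); long ticks with whiskers are means ± SD. Wnt7b, Fzd2 and Gsk3a lie higher and Gsk3b and Dvl2 lower in every 18 month library, while the ranges of Wnt7a overlap; the axes differ between panels.

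The mRNAs of Reck and Gpr124, whose proteins form the complex that reads Wnt7 signals, were low or at 0 in the hippocampus libraries. Reck, a membrane-anchored protein that binds Wnt7 ligands, was measured at 9.03, 10.3 and 7.80 normalized counts in the 18 month libraries, against 17.5, 3.01 and 2.12 in the 6 month libraries. The 6 month values lay on both sides of the 18 month ones, so the groups overlapped. Gpr124, the orphan adhesion receptor now named Adgra2, stood at 0, 5.62 and 0 normalized counts in the 18 month libraries, against 2.19, 0 and 5.34 in the 6 month libraries. Neither gene separated the ages.

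Wnt7b and the brain's other cell types were set side by side, since whole tissue mixes cells and fewer cells of a type cannot be told apart from less RNA per cell. The 15 microglial markers, all in the table, summed to 1042 to 1091 normalized counts in the 18 month hippocampus libraries and 771 to 916 in the 6 month libraries, without overlap, and 12 of the 15 had the higher mean at 18 months. Wnt7b had no count in the 6 microglia libraries, which are of other ages, 24 and 3 months. The part of microglia in the hippocampal Wnt7b values was not tested. Endothelial genes summed to 485 to 646 normalized counts at 18 months and 559 to 639 at 6 months, and astrocyte genes to 4930 to 6369 and 5344 to 5772, with all 13 and all 12 of their markers in the table. Neuronal, dentate granule, CA1, CA3, neocortical and thalamic marker sums also overlapped between the ages. The choroid plexus sum, over 14 of 14 markers, was highest in replicate 2 of each age. In 18 month replicates 2 and 3, with choroid plexus sums of 11239 and 347.7 normalized counts, Wnt7b stood at 57.4 and 57.1. The part of choroid plexus in the Wnt7b values was not tested.

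**Figure D2:**
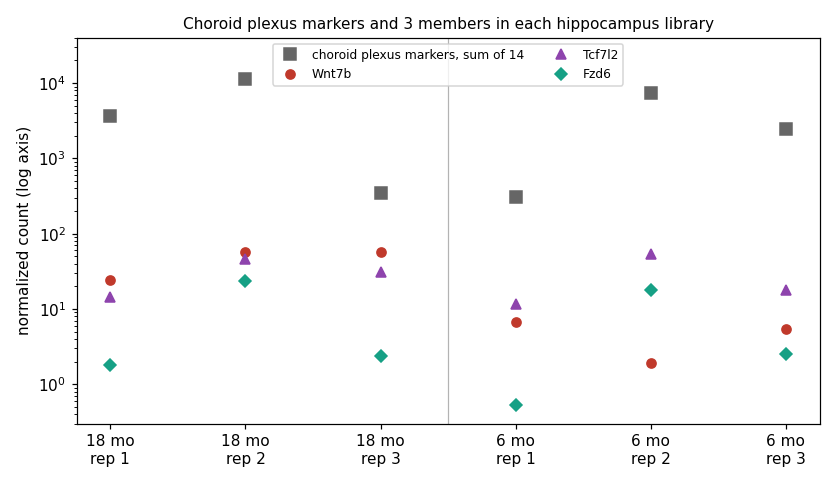
Normalized counts on a log axis in each of the 6 hippocampus libraries for the summed 14 choroid plexus markers (grey squares), Wnt7b (red circles), Tcf7l2 (purple triangles) and Fzd6 (green diamonds). Tcf7l2 and Fzd6 are highest in the replicate 2 library of each age, where the choroid plexus sum is 11239 at 18 months and 7305 at 6 months. The sum of thalamus and habenula genes, not plotted, is highest in the same libraries. So are the members Wnt7a, Fzd3, Fzd4, Fzd7, Dvl2 and Lef1, also not plotted. Wnt7b is 24.6 to 57.4 at 18 months and 1.89 to 6.67 at 6 months.

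The remaining Wnt genes were scarce in the hippocampus. The table holds 12 of the 19 Wnt members, of which 10 had at least 1 normalized count in 3 or more libraries. Of these 10, 6 had a positive and 4 a negative difference, with a median of 0.24 on the log2(normalized count + 1) scale. Wnt5a, a ligand best known for signalling without beta-catenin, stood at 0, 13.9 and 3.38 normalized counts in the 18 month libraries, against 12.5, 11.7 and 27.1 in the 6 month libraries. The groups overlapped through 18 month replicate 2 alone, and the difference was -2.07 ± 0.99 (SE), or -1.06 ± 0.81 without 18 month replicate 1. Wnt9a, at 12.6, 4.86 and 3.10 normalized counts at 18 months against 3.12, 1.80 and 0.633 at 6 months, differed by 1.37 ± 0.90 (SE), or 0.88 ± 0.97 without 18 month replicate 1, and 18 month replicate 3 lay just below the top 6 month library. Wnt2 stood at 9.55 to 23.3 normalized counts at 18 months and 9.05 to 13.997 at 6 months. Wnt5b and Wnt11 were listed at 0 in all 3 libraries of 18 months, against 0, 5.65 and 4.72 for Wnt5b and 0, 1.78 and 5.00 for Wnt11 in the 6 month libraries.

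Among the frizzled receptors, 8 of 10 were in the hippocampus table. Fzd3, the receptor that guides axon growth through planar polarity signalling, was measured at 124.1, 195.7 and 46.6 normalized counts in the 18 month libraries, against 72.1, 77.2 and 71.5 in the 6 month libraries. The 18 month libraries lay on both sides of the tightly grouped 6 month ones. Fzd2 stood at 16.2, 8.58 and 3.12 normalized counts at 18 months, against 2.09, 0 and 0 at 6 months. Its groups did not overlap, and the difference of 2.59 ± 0.94 (SE) on the log2(normalized count + 1) scale became 1.24 ± 0.45 with 5 added in place of 1, since the gene is near 0 at 6 months. Fzd4, the receptor for Norrin on endothelium, stood at 8.98, 18.5 and 7.74 normalized counts at 18 months, against 20.2, 37.5 and 3.78 at 6 months, and Fzd6 at 1.81, 23.3 and 2.35 against 0.524, 18.1 and 2.55. Fzd6 was highest in the replicate 2 library of each age, and so were Fzd3, Fzd4 and Fzd7. These libraries were also the highest in choroid plexus genes and in thalamus and habenula genes. The part of those tissues in the values of these frizzled genes was not tested. Over the 7 frizzled genes that passed the low-value filter, 5 differences were positive and 2 negative.

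The co-receptors Lrp6 and Lrp5, which pair with frizzled to receive a beta-catenin signal, overlapped between the ages. Lrp6 stood at 7.14, 18.5 and 5.59 normalized counts in the 18 month hippocampus libraries, against 23.1, 8.86 and 5.62 in the 6 month libraries. Lrp5 was lower, at 0.545 to 13.1 normalized counts at 18 months and 0 to 1.22 at 6 months.

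Dishevelled proteins relay the signal from the receptors, and all 3 were measured. Dvl3 stood at 53.1, 38.7 and 29.9 normalized counts in the 18 month hippocampus libraries, against 39.4, 38.6 and 50.9 in the 6 month libraries. Dvl1 stood at 10.6, 8.34 and 33.5 normalized counts at 18 months, against 22.5, 16.8 and 17.8 at 6 months. Both overlapped, although 2 of the 3 Dvl1 libraries at 18 months lay below all of those at 6 months. Dvl2 stood at 9.14, 10.6 and 5.45 normalized counts at 18 months, against 11.8, 33.6 and 12.9 at 6 months, a difference of -1.01 ± 0.72 (SE). Its groups did not overlap, and without 6 month replicate 2, the high library, the difference was -0.55 ± 0.84 (SE). Dvl2 shared 16.6% of its 31 base stretches with other genes, chiefly Acadvl on the opposite strand.

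Members of the destruction complex were among the most abundant of the list. Gsk3b, the kinase that marks beta-catenin for destruction, was measured at 344.8, 394.1 and 398.6 normalized counts in the 18 month hippocampus libraries, against 438.5, 432.4 and 456.3 in the 6 month libraries. All 18 month values lay below all 6 month values, and the difference was -0.22 ± 0.15 (SE). Its relative Gsk3a differed in the other direction, at 14.4, 16.7 and 19.4 normalized counts at 18 months against 8.35, 10.8 and 6.36 at 6 months, a difference of 0.92 ± 0.67 (SE). Again the groups did not overlap, but Gsk3a shared 30.3% of its 31 base stretches with other genes, chiefly 9130221H12Rik on the opposite strand. Ctnnb1 stood at 198.4, 104.5 and 122.7 normalized counts at 18 months, against 83.0, 108.8 and 137.4 at 6 months, and Apc at 71.6, 168.2 and 212.8 against 167.6, 90.2 and 209.5. Both overlapped. Axin1 stood at 5.07, 7.79 and 49.5 normalized counts at 18 months, against 4.30, 7.43 and 8.72 at 6 months, with 1 library of 18 months far above the rest. Axin2, a scaffold that is also a general target gene of the pathway, stood at 1.83, 20.9 and 5.597 normalized counts at 18 months, against 13.2, 9.80 and 4.65 at 6 months. Its groups overlapped.

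At the nuclear end, Tcf7l2 stood at 14.2, 45.9 and 31.03 normalized counts in the 18 month hippocampus libraries, against 11.7, 53.0 and 17.8 in the 6 month libraries. It was highest in replicate 2 of each age, as choroid plexus genes were. The sum of thalamus and habenula genes was also highest there. That sum was 242.1, 288.7 and 212.0 normalized counts at 18 months, against 151.3, 337.7 and 173.3 at 6 months. The part of either tissue in the Tcf7l2 values was not tested. Lef1 stood at 5.14, 14.5 and 6.80 normalized counts at 18 months, against 3.75, 19.8 and 11.4 at 6 months, with the same library highest in each group. Dkk3, a secreted relative of the Dickkopf inhibitors that hippocampal neurons express, was the most abundant member, at 484.7, 523.9 and 499.3 normalized counts at 18 months against 594.3, 483.6 and 530.3 at 6 months. Its difference of -0.09 ± 0.14 (SE) was within the spread of the libraries. The soluble frizzled-like inhibitor Sfrp1 stood at 0 to 11.03 normalized counts at 18 months and 1.56 to 1.89 at 6 months.

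**Figure D3:**
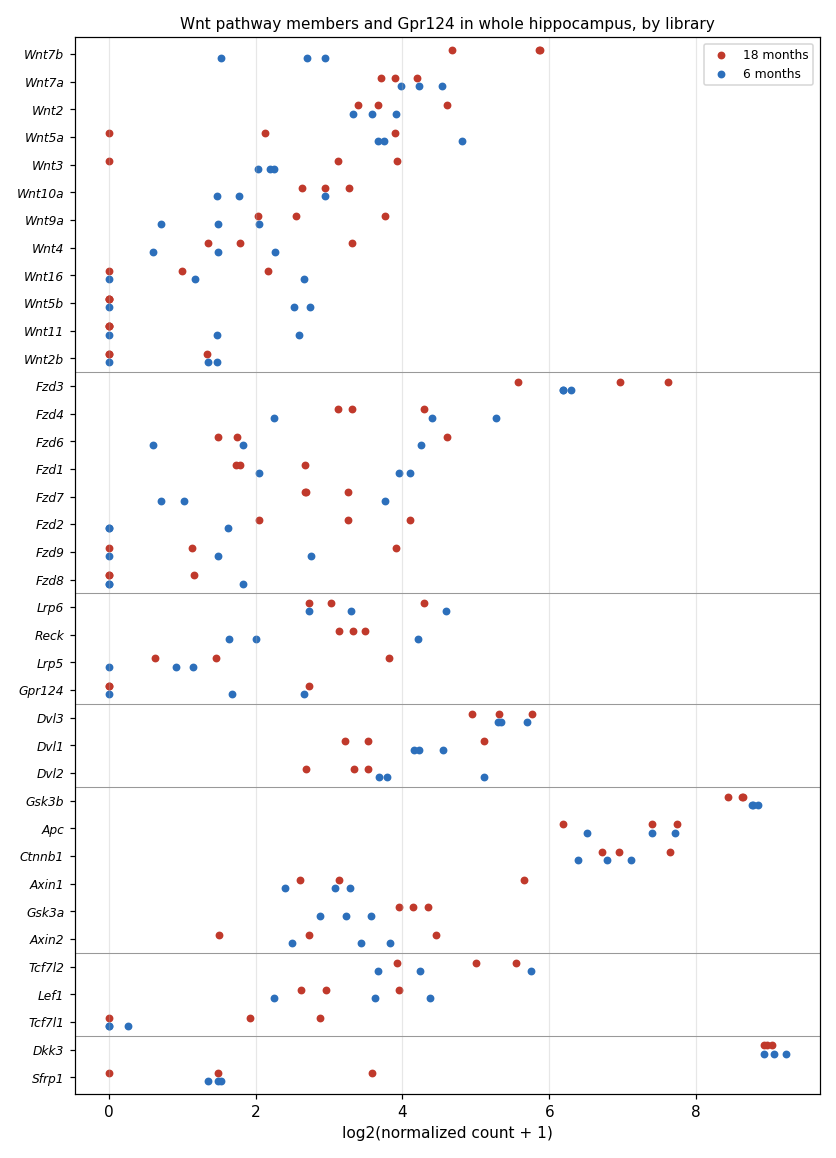
Each row is a member, or Gpr124, in whole hippocampus; points are the 3 libraries at 18 months (red, upper) and 6 months (blue, lower) on a scale of log2(normalized count + 1), and horizontal lines separate ligands, frizzled receptors, co-receptors, dishevelled, destruction complex, TCF/LEF and secreted modulators. Dkk3 and Gsk3b lie far to the right, most ligands lie near the low end, and Wnt7b is the ligand whose ages lie furthest apart.

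Counted over the list, 33 of the 37 hippocampal members passed the filter on low values and 4 (Wnt11, Wnt5b, Fzd8 and Tcf7l1) did not. Every 18 month library lay above every 6 month library in 3 of the 33 (Wnt7b, Fzd2 and Gsk3a) and below in 2 (Gsk3b and Dvl2). Over the 13491 genes that passed, these shares were 5.03% and 5.93%, and since the list was chosen on these samples nothing is read from the comparison. The median difference of the 33 members was 0.23 on the log2(normalized count + 1) scale, with 18 positive and 15 negative (a tally in which 15 signs turned under at least 1 alternative), beside -0.04 over all genes that passed. Limma called no gene of this comparison at an adjusted p under 0.05 (0% higher, 0% lower), with 288 genes (2.13%) higher and 437 (3.24%) lower, 5.37% in all, at an unadjusted p under 0.05, among them 2 members (Wnt7b and Fzd2), from which nothing is read. Per kilobase, with lengths from the microglia data, the order was led by Dkk3 at 161.5 normalized counts. Transcript lengths in the hippocampus itself are unknown. The length of Dkk3 rests on 76 counts in 24 month microglia replicate 2, with 0 counts in the other microglia libraries. Gsk3b at 53.4 and Ctnnb1 at 52.5 were close to each other, followed by Tcf7l2 at 24.8 and Apc at 17.2. Wnt7a, at 14.4, was not placed in this order, since its length rests on no read. Within a group, the highest library exceeded the lowest by more than 4 times, or the lowest was 0, in 15 of 33 members at 18 months and 15 at 6 months, against 32.5% and 24.1% of all genes that passed.

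In microglia, the Wnt ligands were nearly absent and the intracellular machinery was present. Wnt7a and Wnt7b had 0 counts in all 3 libraries at 24 months and all 3 at 3 months. In all, 14 of the 19 Wnt genes had no count in any of the 6 libraries, and Wnt16, Wnt8a and Wnt5a had 2 to 4 counts in total. Wnt4 and Wnt2b were the 2 that passed the filter on low counts. Wnt4 stood at 10.3, 1.31 and 1.23 CPM in the 24 month microglia, against 2.61, 0 and 3.81 CPM in the 3 month microglia, and Wnt2b at 0.106, 3.33 and 1.33 CPM against 0, 1.496 and 0.0681 CPM. Both overlapped between the ages, and the log2 change of Wnt4 was 0.99 ± 1.71 (SE) over all libraries and -0.76 ± 1.93 without 24 month replicate 1.

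Of the 10 frizzled receptors, 5 had no count in any microglia library. Fzd4 was the most abundant on the TPM scale, which corrects for transcript length, with a mean of 4.37 TPM. It stood at 0.106, 39.1 and 16.8 CPM in the 24 month microglia, against 9.11, 28.3 and 30.2 CPM in the 3 month microglia, so that 1 library of 24 months was close to 0. The log2 change was -0.27 ± 1.47 (SE), and 0.30 ± 0.87 without that library. Fzd7 stood at 7.83, 0.202 and 8.35 CPM at 24 months, against 0.0746, 1.12 and 2.86 CPM at 3 months (log2 change 2.003 ± 1.68, SE, or 3.19 ± 2.25 without 3 month replicate 3). Fzd5, with 0, 41 and 1 counts against 0, 0 and 121, and Fzd6, with 6, 53 and 7 counts against 0, 2 and 8, did not pass the filter. Scaled to library size, Fzd6 stood at 0.635, 5.35 and 0.665 CPM against 0, 0.249 and 0.545 CPM, without overlap but by a narrow gap.

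The co-receptors were uneven between the microglia libraries. Lrp5 stood at 13.1, 9.08 and 4.84 CPM in the 24 month microglia, against 27.1, 1.99 and 12.5 CPM in the 3 month microglia. Lrp6 stood at 0, 28.3 and 0.380 CPM at 24 months, against 16.5, 8.48 and 17.02 CPM at 3 months. Single libraries carried much weight in both genes. The log2 change of Lrp6 was -0.55 ± 1.94 (SE) over all libraries and -6.12 ± 2.16 without 24 month replicate 2, and that of Lrp5 was -0.62 ± 1.17 (SE), and 0.31 ± 1.22 without 3 month replicate 1. Reck had 8, 8 and 0 counts at 24 months against 1, 0 and 0 at 3 months, and Gpr124 had 0, 0 and 0 counts against 2, 5 and 0, all too few to test.

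Dvl1 had the log2 change farthest from 0 among the 17 tested members in microglia. The gene (chromosome 4, 155847402 to 155859303, GRCm38) stood at 0.847, 0.202 and 8.83 CPM in the 24 month microglia, against 46.8, 18.0 and 18.2 CPM in the 3 month microglia. All 24 month libraries lay below all 3 month libraries, at means of 3.29 ± 4.81 CPM and 27.6 ± 16.6 CPM (SD, n = 3 each). The log2 change of -3.06 ± 1.47 (SE) did not pass edgeR's quasi-likelihood test over all genes (adjusted p = 0.952), and it was -5.71 ± 1.497 without 24 month replicate 3. Dvl3 was the most abundant of the 3 per length, with a mean of 32.9 TPM against 7.62 TPM for Dvl1 and 2.34 TPM for Dvl2. It stood at 94.1, 71.6 and 68.5 CPM at 24 months, against 155.4, 68.0 and 85.8 CPM at 3 months, with overlap. Its log2 change was -0.40 ± 0.37 (SE), and 0.017 ± 0.31 without 3 month replicate 1, the high library.

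Among destruction complex genes, Axin1 was the 1 member whose 24 month libraries all lay above the 3 month ones, at 31.3, 15.9 and 11.9 CPM against 11.6, 9.97 and 7.42 CPM. The gap between the nearest libraries was narrow, and the log2 change of 1.03 ± 0.88 (SE) did not pass (edgeR, adjusted p = 0.993) and was 0.52 ± 1.02 without 24 month replicate 1. Gsk3b stood at 171.6, 251.8 and 125.7 CPM in the 24 month microglia, against 129.7, 119.3 and 176.8 CPM in the 3 month microglia, a log2 change of 0.37 ± 0.31 (SE), or 0.06 ± 0.31 without 24 month replicate 2. Ctnnb1 stood at 87.4, 50.8 and 24.6 CPM at 24 months, against 5.75, 29.9 and 50.9 CPM at 3 months. Its log2 change was 0.91 ± 0.83 (SE) on counts, and 0.13 ± 0.97 when each library's average transcript length was taken into account. On counts it was 0.38 ± 0.96 without 24 month replicate 1, 0.42 ± 0.61 without 3 month replicate 1 and 1.604 ± 0.97 without 3 month replicate 3. Ctnnb1 shared 13.2% of its 31 base stretches with other genes, chiefly Ulk4 on the opposite strand. Apc swung most between libraries, at 44.99, 44.6 and 1.04 CPM at 24 months against 64.7, 1.37 and 0.340 CPM at 3 months, so that its log2 change of 0.45 ± 1.84 (SE) became 5.15 ± 1.82 without 3 month replicate 1. Axin2 had no count in any of the 6 libraries.

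Tcf7l2 was the member with the highest level per length in microglia, with a mean of 134.5 TPM against 29.3 TPM for Gsk3b and 26.8 TPM for Ctnnb1. It stood at 108.3, 111.5 and 87.8 CPM in the 24 month microglia, against 111.4, 100.6 and 149.2 CPM in the 3 month microglia, with overlap and a log2 change of -0.23 ± 0.26 (SE), which was -0.06 ± 0.31 without 3 month replicate 3. Lef1 stood at 0.475 to 4.66 CPM at 24 months and 0.623 to 1.23 CPM at 3 months, and Tcf7l1 had 4 counts in total. Dkk3, the leading member in whole hippocampus, had 76 counts in 24 month replicate 2 and 0 counts in the other 5 microglia libraries. That library was also the highest in marker genes of several other cell types. It held 154.6 CPM of 13 endothelial genes, against 23.6 to 77.1 CPM in the other libraries, and 61.7 CPM of 12 neuronal genes, against 20.6 to 25.6 CPM. It held 36.0 CPM of 7 border macrophage genes, against at most 6.33 CPM, and 11.9 CPM of 10 oligodendrocyte precursor genes, against at most 0.970 CPM. Of these lists, Tubb3, Slc17a7, Lyve1 and 5 precursor genes (Cspg4, Gpr17, Olig2, Sox10 and Vcan) were at 0 in all libraries. The part of these cells in the Dkk3 counts was not tested.

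**Figure D4:**
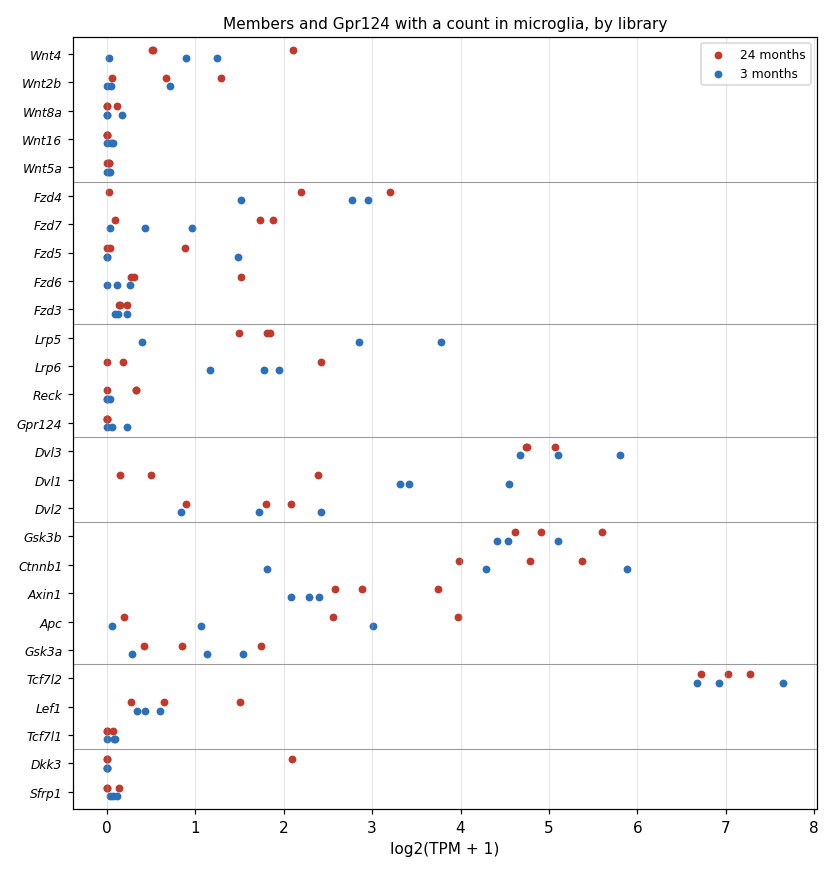
Each row is a member, or Gpr124, with a count in microglia; points are the 3 libraries at 24 months (red, upper) and 3 months (blue, lower) on a scale of log2(TPM + 1), and horizontal lines separate the roles from ligands at the top to secreted modulators at the bottom. Tcf7l2, with a mean of 134.5 TPM, lies far to the right, and the ligands lie near 0. Dvl1 is separated by age, and Axin1 and Fzd6 by narrower gaps. Apc is spread within each age, and Fzd4 and Lrp6 chiefly at 24 months.

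Counted over the list, 17 of the 46 members passed the microglia filter. EdgeR's quasi-likelihood test called none of the 17 at an adjusted p under 0.05, as it called none of the 10663 genes tested (0% higher, 0% lower). At an unadjusted p under 0.05 there were 0 members, beside 375 genes (3.52%) higher and 215 (2.02%) lower, 5.53% in all. DESeq2 called 0 of the 15 members to which it gave an adjusted p, beside 1.14% of 10565 genes higher and 0.189% lower at 24 months. The authors' deposited table called 0 of the 17 members to which it gave an adjusted p, beside 1.54% of 12084 genes higher and 0.472% lower. Those 17 include Fzd6, which edgeR's filter dropped, and lack Lrp6, which edgeR tested. Of the 17 that edgeR tested, all 24 month libraries lay above all 3 month libraries in 1 (Axin1) and below in 1 (Dvl1), shares close to the 7.26% and 6.18% over all tested genes. The median log2 change of the 17 was 0.24, with 11 positive and 6 negative, beside 0.01 over all tested genes. Spread within a group was wide: the highest library exceeded the lowest by more than 4 times, or the lowest was 0, in 9 of 17 members at 24 months and 8 at 3 months, against 35.2% and 41.4% of all tested genes. Astrocyte genes, 12 of 12 in the table, summed to 332.8 to 460.7 CPM at 24 months and 130.3 to 275.1 CPM at 3 months, and mural cell genes, 9 of 9, to 5.98 to 294.5 CPM and 0.299 to 1.02 CPM. Ependymal genes, 7 of 7, summed to 3.13 to 5.82 CPM at 24 months and 8.85 to 10.1 CPM at 3 months. These 3 sums separated the ages as Dvl1 and Axin1 did, but single genes weighed heavily. The mean was higher at 24 months in 7 of 12 astrocyte, 6 of 9 mural and 1 of 7 ependymal genes. Acta2 alone made up 215.0 of the 294.5 CPM of mural genes in 24 month replicate 1, and 0 mural genes passed the filter. Fgfr3 of the astrocyte genes and Pdgfrb, Kcnj8 and Higd1b of the mural genes were at 0 throughout. So were Tmem212, Foxj1, Rsph1 and Dynlrb2 of the ependymal genes. The part of these cells in the member values was not tested.

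**Figure D5:**
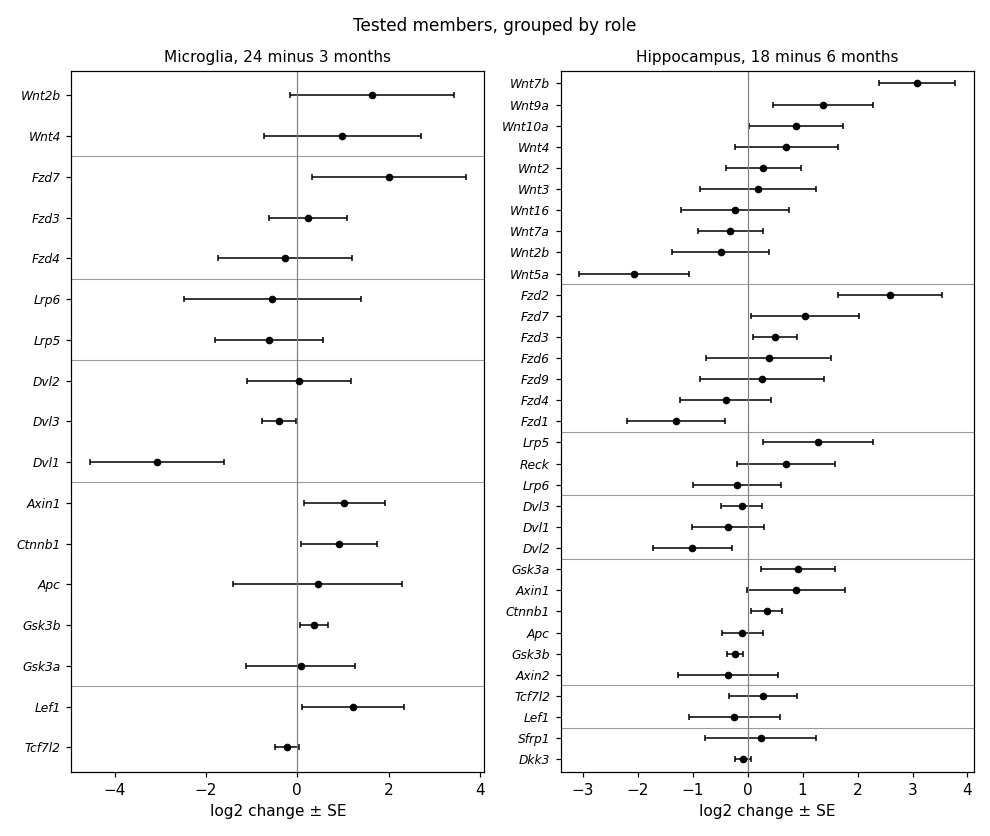
Log2 change with its standard error (horizontal axis) for each member that passed the filter, grouped by role: 24 minus 3 months in microglia from edgeR (left) and 18 minus 6 months in hippocampus from limma on log2(normalized count + 1) (right). In microglia the intervals are wide and none of the 17 members passed the test; in hippocampus Wnt7b, at 3.08 ± 0.69, has the highest value and was chosen for it.

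Further genes of the pathway were read from 8 lists. These were not kept apart from the members, since the beta-catenin target list also holds Lef1. Neither edgeR in microglia nor limma in hippocampus called a member of any list. At an unadjusted p under 0.05 there were 4 of 83 list genes in microglia (4.82%, beside 5.53% of all genes) and 7 of 124 in the hippocampus (5.65%, beside 5.37%), shares near those of all genes. Genes of Wnt secretion and transport were represented by 3 tested genes in microglia. Tmed5, a cargo receptor of the early secretory pathway, stood at 205.5, 172.0 and 26.8 CPM in the 24 month microglia, against 23.2, 17.5 and 31.5 CPM in the 3 month microglia, high in the 2 libraries that were also high in immediate early genes. Its log2 change was 2.48 ± 0.71 (SE; edgeR, adjusted p = 0.629), and without 24 month replicate 3 it was 2.95 ± 0.37 and passed (edgeR, adjusted p = 0.0427). DESeq2 called it with all libraries (log2 change 2.49 ± 0.72, SE; adjusted p = 0.0429). The part of the immediate early response in it was not tested. Wls, the carrier that brings Wnts to the cell surface, stood at 33.8, 56.9 and 41.7 CPM at 24 months, against 34.1, 24.8 and 36.0 CPM at 3 months, with overlap.

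Nuclear partners of beta-catenin numbered 17 tested genes in microglia, 11 with a positive and 6 with a negative change and a median of 0.22. Tle1, a Groucho corepressor, stood at 0.106, 0 and 0 CPM in the 24 month microglia, against 19.6, 0.997 and 2.38 CPM in the 3 month microglia. It did not pass edgeR (adjusted p = 0.629) but did pass DESeq2 (adjusted p = 0.0437). Tbl1xr1, an exchange factor for corepressors, stood at 61.8, 64.8 and 63.6 CPM at 24 months, against 39.3, 21.1 and 24.7 CPM at 3 months, without overlap (log2 change 1.16 ± 0.44, SE; edgeR, adjusted p = 0.868). Known beta-catenin target genes gave 11 tested genes, the member Lef1 among them, 8 positive and 3 negative, with a median of 0.56. Id2, an inhibitor of helix-loop-helix factors, stood at 272.3, 188.8 and 33.4 CPM at 24 months against 51.4, 31.05 and 24.1 CPM at 3 months, again high in the libraries rich in immediate early genes. Among 17 tested genes of the calcium branch, 10 changes were positive and 7 negative, with a median of 0.82. Prkca, a calcium-dependent kinase, stood at 25.9 to 44.6 CPM at 24 months and 12.8 to 21.4 CPM at 3 months (edgeR, adjusted p = 0.993). Nfatc2 went the other way, at 14.6, 56.7 and 28.2 CPM at 24 months against 35.5, 88.6 and 74.2 CPM at 3 months, with overlap.

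In the hippocampus, the ages did not overlap in 4 of the 22 tested planar polarity genes, all higher at 18 months, with a median difference of 0.17. The same held, in either direction, for 3 of 12 other inhibitors and 2 of 9 genes of the R-spondin and Norrin axis. These lists had the largest such shares. Of 9 secretion genes 0 lay above and 0 below, and of 20 beta-catenin turnover genes 0 and 2. Of 19 nuclear partners 1 lay above and 2 below, of 21 target genes 0 and 1, and of 18 calcium branch genes 1 and 1. No list was tested as a set. Over all genes, 5.03% lay above and 5.93% below without overlap. Celsr3, an atypical cadherin of axon guidance, stood at 12.5, 16.97 and 20.3 normalized counts in the 18 month libraries, against 1.71, 0 and 2.78 in the 6 month libraries, a difference of 2.99 ± 0.87 (SE). Rac1, the small GTPase downstream of dishevelled, stood at 343.5, 485.4 and 369.6 normalized counts at 18 months, against 338.2, 103.5 and 198.6 at 6 months. Scrib, a polarity scaffold, stood at 7.25, 48.0 and 14.9 against 1.12, 3.64 and 7.08. From the calcium branch, Nlk, a kinase that phosphorylates TCF/LEF factors, stood at 6.90, 4.71 and 12.6 normalized counts at 18 months, against 23.9, 89.0 and 21.4 at 6 months, a difference of -2.12 ± 0.69 (SE). Camk2a, the abundant calcium-dependent kinase of excitatory synapses, stood at 9209, 8897 and 8408 normalized counts against 7986, 6904 and 7519. Macf1, a cytoskeletal linker that binds Axin, stood at 68.2, 127.5 and 94.5 normalized counts at 18 months against 164.8, 208.9 and 135.8 at 6 months. Beta-catenin target genes were balanced, with 10 positive and 11 negative differences among 21 and a median of -0.01. The 12 other inhibitors had 6 positive and 6 negative differences. Kremen1, a receptor for the Dickkopf inhibitors, stood at 6.67, 0 and 7.20 normalized counts at 18 months against 20.5, 16.9 and 7.62 at 6 months. Shisa2 of the same list went the other way, at 7.22, 2.44 and 4.68 against 0, 0 and 1.27. Ndp, which encodes the Fzd4 ligand Norrin, stood at 7.17, 8.28 and 12.4 against 18.3, 29.1 and 15.3.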

How the data were processed

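The members and the gene lists were chosen with earlier results of these data known. Per the file headers, the microglia table the authors deposited holds 3 values per gene and library: TPM, an estimated count and an average transcript length. A second deposited table per tissue holds each library's normalized count, a signal made comparable between libraries. The authors' log2 fold change, Wald score and raw and adjusted p-value stand beside it, per the file headers. Tools named in the submitters' processing notes are DESeq, DESeq2 and kallisto, and builds are mm10 and GRCm39; which applies to which table is not given in the sources used here. The deposited hippocampus log2 values run as 6 over 18 months and were turned round.

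Estimated counts were rounded and tested with edgeR 4.0.16 (R 4.3.3): quasi-likelihood test, TMM scaling, filterByExpr, 24 minus 3 months, 6 libraries. CPM levels use library sizes after TMM scaling, and the SE is the log2 change divided by the root of F. The hippocampus values used are not counts, so limma 3.58.1 with a mean trend was run on log2(normalized count + 1), for genes at 1 or more in at least 3 libraries. That scale understates changes of low genes. P-values are two-sided and Benjamini-Hochberg adjusted over all genes of a tissue. DESeq2 1.42.0 was an alternative. The scripts were tested on simulated data. Other alternatives were the filter, transcript length as an offset, the pseudocount, scaling to equal sums, the replicate number as a block and leaving out each library.

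Values in every sample are given by rule for Wnt7a, Wnt7b, Reck and Gpr124, for members without overlap between groups if their mean is in the upper part of all genes, and for the 10 most abundant members per tissue. Of each pathway list, up to 4 genes with the smallest p could be named. Other members (such as Fzd2, Gsk3a, Dvl2, Wnt5a and Wnt9a) were named after their values were seen. The entry with no gene name held 0.0546% to 0.0771% of microglia counts and 0.0233% to 0.0335% of hippocampus signal and was left out. Every sample column was matched (0 were not). Coordinates, overlaps and sequences are from GENCODE M21 (GRCm38), not the tables. A promoter or protein sequence was not used here.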

Additional observations from a re-analysis of the deposited data

How the results depend on the processing

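Libraries varied widely within groups, which limits what 3 against 3 can show, and the hippocampus depth is unknown. DESeq2 called 140 genes in microglia where edgeR called 0, and 2 pathway list genes (Tmed5 and Tle1) where edgeR called 0. Leaving out each library in turn gave 0 to 55 called genes in microglia, with 55 without 24 month replicate 3, and 0 to 1 list genes. In the hippocampus it gave 0 to 1 called genes, the 1 being Lrrc17 without 6 month replicate 1. No alternative called a member of the Wnt list in microglia, and the Wnt7b difference, whose direction is fixed by groups that do not overlap, was 2.65 to 3.47 with a library left out and 2.36 to 3.22 under the other settings.

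Signs turned under at least 1 alternative for 10 of 17 members in microglia and 15 of 33 in hippocampus. With transcript length as an offset, Dvl2 in microglia had a log2 change of -0.19, against 0.03 without. With a library left out, the microglial log2 change was -0.16 to 5.15 for Apc, -0.37 to 0.39 for Dvl2, -0.64 to 0.017 for Dvl3, -0.026 to 0.66 for Fzd3, -1.42 to 0.30 for Fzd4, -0.96 to 0.72 for Gsk3a, -0.047 to 1.67 for Lef1, -1.15 to 0.31 for Lrp5, -6.12 to 0.027 for Lrp6 and -0.76 to 1.67 for Wnt4. In hippocampus the difference was -0.45 to 0.36 for Apc, -0.61 to 1.39 for Fzd6, -0.83 to 0.24 for Lef1, -0.17 to 0.88 for Tcf7l2 and -0.60 to 1.37 for Wnt3, which was also -0.017 with a pseudocount of 0.5. The other 10 were Axin1, Axin2, Dvl1, Dvl3, Fzd4, Fzd9, Lrp6, Sfrp1, Wnt16 and Wnt2. The cause was not tested.

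Whether the replicate numbers pair the samples is not in the labels. Deviations of same-numbered libraries from their group mean correlated at -0.02 to 0.07 in microglia and 0.01 in hippocampus. Differently numbered libraries gave -0.07 to 0.07 in microglia and -0.05 to 0.04 in hippocampus. With 3 libraries a group, such values cannot settle the question. With the replicate number as a block, 0 genes were called in either tissue.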
